A study of Mus musculus with 2 samples.

Results

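The 10 genes described here fall into 2 groups that meet in Wilms tumour, a childhood kidney cancer: RNA-binding and chromatin proteins of fetal tissue (Lin28b, Igf2bp1, Igf2bp2, Igf2bp3 and Hmga2) and genes of small RNA processing, RNA decay and gene silencing that are mutated in some of these tumours or their predisposition syndromes (Dicer1, Drosha, Dgcr8, Dis3l2 and Trim28). They were chosen by name, 10 of 21951 protein-coding genes in GENCODE M21, and every peak over a gene body or the 2 kb upstream of it was taken, which gave 118 of 159560 peaks in the Enl-WT library and 95 of 130027 in the Enl-T1 library (mm10). Open chromatin was measured in single nuclei of E15.5 mouse kidney by snATAC-seq, in which a transposase cuts accessible DNA. The Enl-T1 embryos were Enl flox-T1/+ Wt1 GFPCre/+, so that Cre made in Wt1-expressing nephron and stromal precursors switched on 1 allele of Enl (Mllt1) with a Wilms tumour insertion in its YEATS domain. Enl-WT embryos were Enl +/+ Wt1 GFPCre/+, and since the Cre sits in the Wt1 locus both groups lack 1 functional Wt1 allele. Each group is 1 library, and the number of embryos pooled for it is not given, so there is no replicate spread and no test of the genotype, and intervals cover counting error only.

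MicroRNAs are cut from their primary transcripts by DROSHA with its partner DGCR8 and then from hairpins by DICER1. LIN28B binds let-7 precursors and blocks their maturation, DIS3L2 degrades uridylated let-7 precursors, and mature let-7 in turn represses Lin28b, Hmga2 and Igf2bp mRNAs. This loop keeps fetal genes on in immature tissue and lets them fall as organs such as the kidney differentiate. TRIM28 is a co-repressor recruited by KRAB zinc-finger proteins.

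The mature let-7 family shows what joins the first group. All 9 mature mouse family members matched in RefSeq carry the same seed (bases 2 to 8, in capitals), 3 of which are printed to show that the rest of the sequence varies while the seed does not.
mmu-let-7a-5p: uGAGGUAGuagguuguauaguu
mmu-let-7d-5p: aGAGGUAGuagguugcauaguu
mmu-miR-98-5p: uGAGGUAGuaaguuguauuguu
The reverse complement of that seed, CTACCTC, was counted on the transcript strand in the longest annotated 3′ UTR of each gene (GENCODE M21). It occurred 4 times each in Lin28b, Igf2bp1 and Hmga2, once each in Igf2bp2 and Igf2bp3, and not at all in Dicer1, Drosha, Dgcr8, Dis3l2 or Trim28. Of 20964 genes with a 3′ UTR, 8.96% held at least 1 match and 0.0572% held at least 4. The 3′ UTRs compared ranged from 169 bases in Drosha to 6337 bases in Igf2bp1, and the longer ones have more room for a match. The first match after the stop codon of each of the 5 genes is shown with the match in capitals.
Lin28b, minus strand, chr10:45381016-45381037: cgggaagtCTACCTCatgcaag
Igf2bp1, minus strand, chr11:95961772-95961793: gaagtaaaCTACCTCaaggtgt
Igf2bp2, minus strand, chr16:22059467-22059488: aataaaagCTACCTCaggtgtt
Igf2bp3, minus strand, chr6:49086781-49086802: ttactcaaCTACCTCaggtatt
Hmga2, minus strand, chr10:120364218-120364239: ttcaatttCTACCTCagcatca
A match is a description of the sequence, and let-7 itself was not measured.

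The libraries held 9628 (Enl-WT) and 13376 (Enl-T1) barcodes, of which 9472 and 12635 had 2000 to 100000 counts in peaks and were kept, with medians of 14789.5 and 8753 counts. Of these, 149 barcode sequences occurred in both libraries. Nuclei were clustered on regions outside the 10 genes and named from marker genes. Nephron progenitor-like nuclei numbered 1817 and 3927, stroma-like 2960 and 4805, ureteric epithelium-like 861 and 1628, and endothelial-like 773 and 628. Podocyte-like and proximal tubule-like nuclei numbered 295 and 803 in Enl-WT but 1 and 45 in Enl-T1, and were compared between libraries for no gene. The nephron progenitor-like nuclei of the libraries lay in different clusters: cluster 1 held 1816 Enl-WT nuclei with 112 of Enl-T1, cluster 0 held 2893 Enl-T1 nuclei and 1 of Enl-WT, and cluster 10 held 922 Enl-T1 nuclei only. The 11 progenitor markers summed to 754 CPM (counts scaled to a common library total over shared regions) in Enl-WT and 619 CPM in Enl-T1 progenitor-like nuclei, against 332 to 392 CPM in the stroma-like, ureteric epithelium-like and endothelial-like nuclei of both libraries, and no progenitor marker was at 0. In Enl-T1 progenitor-like nuclei 4 of the 11 were lower by 0.5 log2 or more, and only 3 of the 11 were raised in cluster 0 by the naming rule, against 8 each in clusters 1 and 10. The part of these differences in the results below was not tested.

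Fewer peaks were called over the 10 genes in Enl-T1. In Enl-WT 35 of the 118 peaks (29.7%) overlapped no Enl-T1 peak, beside 30% of all Enl-WT peaks. In Enl-T1 10 of the 95 (10.5%) overlapped no Enl-WT peak, beside 13.4% of all Enl-T1 peaks. Both shares were near those of the whole peak lists. Peaks were called in each library separately, and those over the genes covered 117275 bp (Enl-WT) and 81292 bp (Enl-T1). Dis3l2, the longest of the genes at 346 kb, had 27 and 22 peaks, Hmga2 had 22 and 19, Igf2bp3 had 17 and 12, Drosha had 13 and 10, and Dgcr8 had 1 in each library, at its start.

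**Figure D1:**
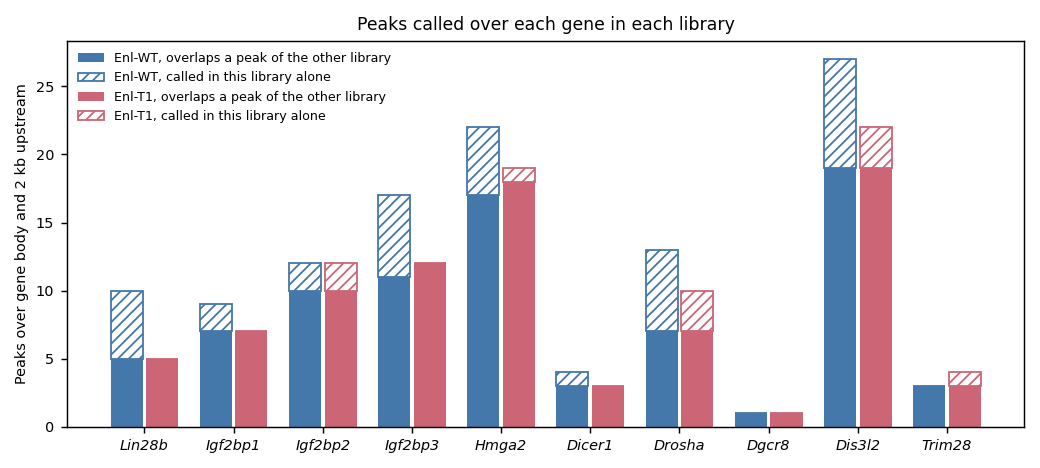
Number of peaks over the body and 2 kb upstream of each gene (vertical axis) in the Enl-WT (blue) and Enl-T1 (red) libraries. Filled bars are peaks that overlap a peak of the other library and hatched bars are peaks of that library alone, 35 in Enl-WT and 10 in Enl-T1.

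Lin28b had 10 peaks in Enl-WT and 5 in Enl-T1, and 5 of the Enl-WT peaks were called in that library alone. One of these, chr10:45469254-45469918, was annotated as intron and start site, lay just inside the start of the coding transcript at chr10:45470201 and held 693 counts over all Enl-WT nuclei. Nephron progenitor-like nuclei gave 22.1% of its counts (exact binomial interval 17.7 to 26.7), close to their 20.6% share of all counts of that library. No Enl-T1 peak was called there, so the Enl-T1 table holds no count at the site and a level could not be compared. The middle of that peak is shown because it lies at the start of the let-7 antagonist (GRCm38.p6, plus strand, chr10:45469436-45469735, no searched motif).
Lin28b, peak of Enl-WT alone: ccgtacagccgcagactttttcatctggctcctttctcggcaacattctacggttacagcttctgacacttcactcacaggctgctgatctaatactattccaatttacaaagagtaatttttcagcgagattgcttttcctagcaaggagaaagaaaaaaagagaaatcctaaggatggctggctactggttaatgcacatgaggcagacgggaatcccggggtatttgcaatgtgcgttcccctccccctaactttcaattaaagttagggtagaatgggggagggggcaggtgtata

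Drosha had peaks of both kinds, 6 in Enl-WT alone and 3 in Enl-T1 alone. Among those of Enl-WT, progenitor-like nuclei gave 101 of 247 counts (40.9%, 31.6 to 49.5) at chr15:12847882-12848801 and 79 of 160 (49.4%, 38.6 to 61.4) at chr15:12927642-12928542, against 20.6% of all counts, and 12.8% to 24.3% at the other 4. Of the 3 Enl-T1 peaks, all intronic, 2 drew most of their counts from progenitor-like nuclei. How many of all peaks of either library alone draw as large a share from these nuclei was not counted. At chr15:12915894-12916802 these nuclei gave 399 of 536 counts (74.4%, 69.0 to 79.7), and at chr15:12919780-12920659 they gave 322 of 474 (67.9%, 61.6 to 73.8), while they held 35.6% of all counts of the library. Stroma-like nuclei, with 34.8% of all counts, gave 11.9% and 14.8%. Within Enl-T1 both progenitor clusters were open at the sites, with 11.7 CPM in cluster 0 and 8.90 CPM in cluster 10 at the first, and 7.88 and 11.4 CPM at the second. The remaining Enl-T1 peak, chr15:12907997-12909030, drew 39.5% of its counts (31.6 to 47.7) from progenitor-like nuclei. These peaks were singled out after their values were seen, and since Enl-WT has no peak there its level is unknown. The middle 300 bases of both are given on the plus strand (GRCm38.p6, chr15:12916198-12916497 and chr15:12920070-12920369).
Drosha, first peak: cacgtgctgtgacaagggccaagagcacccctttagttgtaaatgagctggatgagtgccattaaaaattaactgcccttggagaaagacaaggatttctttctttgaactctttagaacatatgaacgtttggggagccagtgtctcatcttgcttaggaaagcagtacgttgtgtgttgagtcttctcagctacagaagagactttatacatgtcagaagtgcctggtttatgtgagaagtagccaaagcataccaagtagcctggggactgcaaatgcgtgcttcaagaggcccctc
Drosha, second peak: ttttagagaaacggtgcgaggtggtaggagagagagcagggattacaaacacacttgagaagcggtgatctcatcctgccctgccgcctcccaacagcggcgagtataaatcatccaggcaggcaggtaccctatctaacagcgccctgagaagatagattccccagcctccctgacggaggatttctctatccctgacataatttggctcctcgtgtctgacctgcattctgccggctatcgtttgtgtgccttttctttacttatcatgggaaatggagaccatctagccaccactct
Neither window matched the 3 motifs searched on both strands without regard to overlap, TGANTCA (AP-1), TTTATNG (posterior HOX) and TCANGTTTC (Six2-type), which occurred in 10.7%, 16.0% and 1.82% of 300-base windows at the middle of 176005 regions. Among 126 windows over the 10 genes they occurred in 16, 21 and 6, or 12.7%, 16.7% and 4.76%.

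A further Enl-WT peak was picked at Hmga2, a chromatin protein of fetal and tumour cells. At the intronic peak chr10:120441120-120442089, called in Enl-WT alone, progenitor-like nuclei gave 290 of 584 counts (49.7%, 43.8 to 55.5) against 20.6% of all counts. It too was chosen after its value was seen, and how many of all peaks of Enl-WT alone reach this percentage was not counted. At Igf2bp3 a peak of Enl-WT alone, chr6:49213206-49214490, covered the 5′ UTR and coding exon beside the start region that both libraries shared, and progenitor-like nuclei gave 23.3% of its 1894 counts (20.6 to 26.1).

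Levels were compared over the 81 regions called in both libraries, as CPM of all counts in shared regions. Per kb of peak over all nuclei, Dgcr8 was the most open in Enl-WT (59.0 CPM per kb, from its single start region), followed by Trim28 (29.7), Dicer1 (16.5) and Igf2bp1 (16.3), and Lin28b was the least (3.56). In Enl-T1 Dgcr8 (62.2 CPM per kb) and Lin28b (3.66) were again the ends of the order. RefSeq promoters (GRCm38.p6, 250 bases before to 50 after the start) matched 9 of the 10 genes, all but Igf2bp1. The Lin28b promoter had the lowest GC content of the 9 (39.0%, against a median of 52.7% over 32851 promoters) and, like those of Igf2bp3 and Drosha, no GC box (GGGCGG, either strand), which 35.7% of all promoters held. The others had 57.7% (Hmga2) to 77.3% (Dicer1) GC.

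Hmga2 differed most between classes of nuclei among the 10 genes in Enl-WT, a rank that rests on 34 counts in 100 immune-like nuclei. Without that class Dis3l2 had the widest range, at 2.66-fold. The Hmga2 level was 267 CPM (exact Poisson interval 258 to 276.5) in nephron progenitor-like, 244 CPM (230 to 258) in endothelial-like, 160 CPM (154 to 166) in stroma-like, 115 CPM (98.9 to 134) in podocyte-like and 38.0 CPM (22.1 to 60.8) in immune-like nuclei, a 7.04-fold range. The progenitor-like level lay above its nearest neighbour beyond the intervals, whereas the endothelial-like, early nephron epithelium-like and distal tubule or loop-like intervals overlapped in turn. In Enl-T1, immune-like nuclei were again the lowest (65.9 CPM, 45.1 to 93.02), but the top differed: early nephron epithelium-like (257 CPM, 216 to 301), endothelial-like (249 CPM, 230 to 269.5) and progenitor-like nuclei (230 CPM, 223 to 237) came in that order with overlapping intervals.

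The 3 Igf2bp genes, whose proteins bind and stabilise mRNAs, followed different orders. Igf2bp1 was most open in proximal tubule-like nuclei (152 CPM, 142 to 163), then in nephron progenitor-like nuclei (135 CPM, 128 to 141), and least in immune-like nuclei (32.4 CPM, 17.1 to 52.4). Igf2bp3 was most open in ureteric epithelium-like nuclei, with 167 CPM (157 to 178) in Enl-WT and 175 CPM (165 to 185) in Enl-T1, against 98.1 and 88.3 CPM in stroma-like nuclei. Igf2bp2 ranged only from 67.3 CPM (63.65 to 71.2) in stroma-like to 94.0 CPM (88.8 to 99.5) in progenitor-like Enl-WT nuclei. No neighbours in its order were apart, although these extremes were. Lin28b ran from 12.5 CPM (10.9 to 14.2) in stroma-like to 27.9 CPM (13.8 to 46.8) in immune-like nuclei of Enl-WT, and from 12.8 CPM (11.2 to 14.5) in stroma-like to 48.0 CPM (24.2 to 92.8) in erythroid-like nuclei of Enl-T1, with no neighbours apart in either library. Classes further apart in the order could differ, as endothelial-like nuclei of Enl-WT (23.8 CPM, 19.7 to 28.5) lay above stroma-like ones. The annotated Lin28b gene reaches chr10:45486395, beyond its coding start at chr10:45470201. Its shared regions chr10:45473250-45474053, chr10:45482946-45483880 and chr10:45485555-45486781 lie upstream of that start. They held 38, 67 and 211 of the 409 Lin28b counts in Enl-WT progenitor cluster 1, and no level includes the start peak of Enl-WT alone.

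Among the processing and decay genes Drosha was highest in stroma-like nuclei of Enl-WT (103 CPM, 98.2 to 108), above proximal tubule-like nuclei (79.9 CPM, 72.5 to 87.7), and progenitor-like nuclei had 63.1 CPM (58.8 to 67.6). Dis3l2 was highest in distal tubule or loop-like nuclei (158 CPM, 147 to 169) and lowest in endothelial-like nuclei (59.2 CPM, 52.7 to 66.5). Dicer1, Dgcr8 and Trim28 varied by 1.31-fold, 1.71-fold and 1.31-fold over 9 classes of Enl-WT, with no neighbours apart but the extremes of each apart. Over 8 classes of Enl-T1 they varied by 1.91-fold, 2.34-fold and 2.59-fold, and there Dicer1 was higher in progenitor-like (72.3 CPM, 68.5 to 76.3) than in stroma-like nuclei (64.1 CPM, 60.4 to 67.9) and Trim28 was higher in the 66 erythroid-like (290 CPM, 222 to 379) than in immune-like nuclei (173 CPM, 138 to 214). These orders came from regions over the whole gene. Lin28b has no shared start region. Counting start regions alone kept the highest class for 3 of the other 9 genes, Hmga2, Dgcr8 and Dis3l2. For Drosha, proximal tubule-like nuclei were the highest both with start regions alone and with regions of 80% reciprocal overlap.

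**Figure D2:**
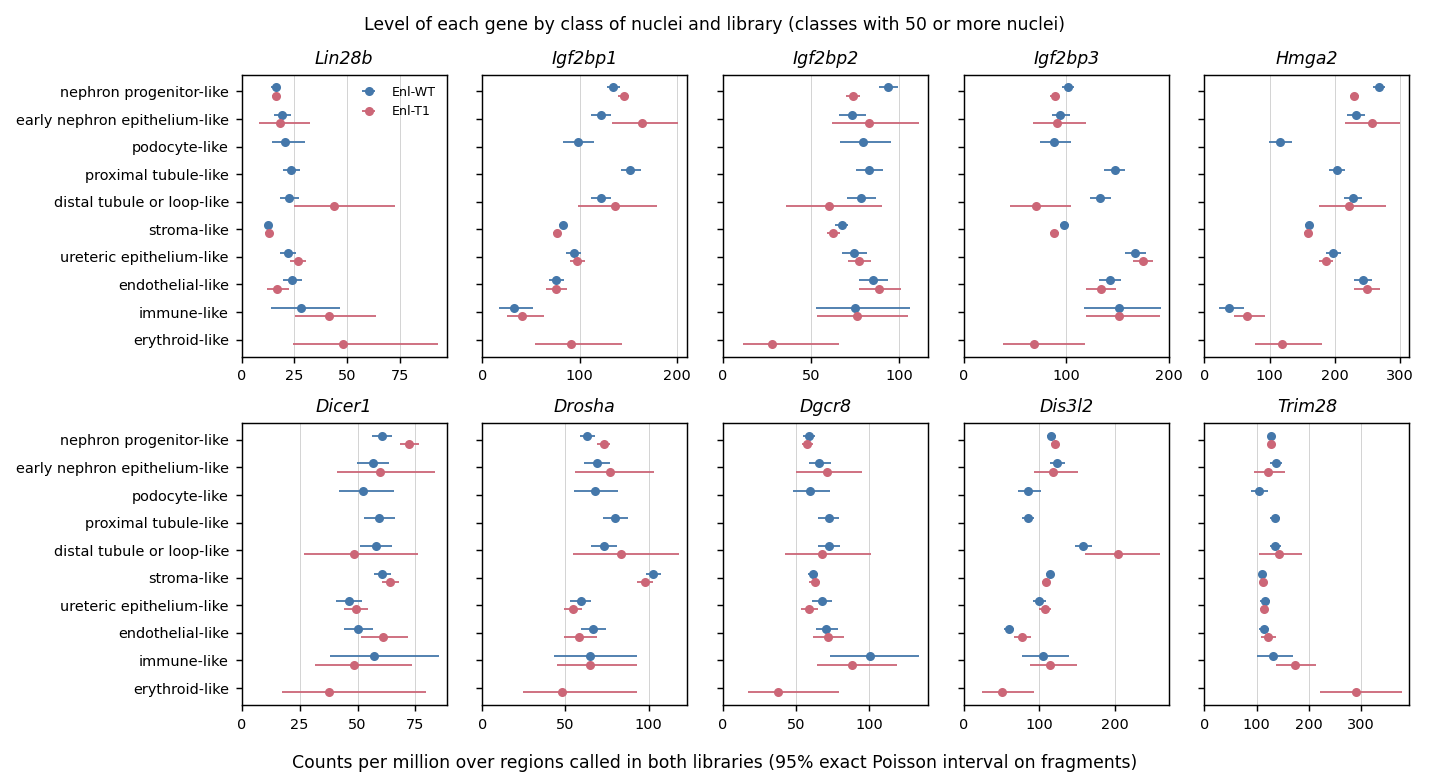
CPM over shared regions (horizontal axis, 1 panel a gene) in each class of nuclei with 50 or more nuclei, in Enl-WT (blue) and Enl-T1 (red). Bars are 95% exact Poisson intervals on fragments. Hmga2 ran from 38.0 CPM in immune-like to 267 CPM in progenitor-like Enl-WT nuclei, and Trim28 stayed between 104 and 137 CPM in the Enl-WT classes.

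The question of the study, how mutant ENL alters chromatin in the embryonic kidney, was taken up gene by gene in the 4 largest comparable classes and over all nuclei. In nephron progenitor-like nuclei none of the 10 genes passed 0.5 log2 in either direction, where 6.63% of 16791 protein-coding genes did. The median of the 10 log2 ratios (Enl-T1 over Enl-WT) was 0.01, with 5 above and 5 below 0, and that of all genes was 0.01. Over all nuclei and in stroma-like and ureteric epithelium-like nuclei none passed either, beside 2.97%, 3.74% and 4.71% of all genes, and in endothelial-like nuclei 1 did, beside 7.75%. The median of the 10 was -0.04 over all nuclei (all genes -0.03), -0.04 in stroma-like nuclei (all genes -0.00), 0.06 in ureteric epithelium-like nuclei (all genes -0.01) and 0.03 in endothelial-like nuclei (all genes -0.01). The endothelial-like gene was Lin28b, with 23.8 CPM in Enl-WT and 16.7 CPM in Enl-T1, with a log2 ratio of -0.51 whose interval (-1.06 to 0.01) held 0.

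Below that fold, several genes of the first group were lower in Enl-T1 progenitor-like nuclei. Igf2bp2 had 94.0 CPM in Enl-WT and 73.8 CPM in Enl-T1, with a log2 ratio of -0.35 (-0.46 to -0.24). Hmga2 had 267 and 230 CPM, a log2 ratio of -0.22 (-0.28 to -0.15), which its start region alone turned to 0.22 (0.04 to 0.41), and Igf2bp3 had 102 and 88.7 CPM, a log2 ratio of -0.20 (-0.31 to -0.09). Igf2bp1 went the other way, with 135 and 145 CPM and a log2 ratio of 0.11 (0.02 to 0.20), and Lin28b had 16.1 and 16.3 CPM (0.02, -0.24 to 0.29). The Hmga2 start region was a peak of 867 bp in Enl-WT but peaks of 701 and 523 bp in Enl-T1, so its ratio also carries width.

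Both RNase III genes were higher in Enl-T1 progenitor-like nuclei by a small margin. Dicer1 had 60.6 CPM in Enl-WT and 72.3 CPM in Enl-T1, with a log2 ratio of 0.26 (0.13 to 0.38), and Drosha had 63.1 and 73.0 CPM, a log2 ratio of 0.21 (0.08 to 0.34). Dgcr8 (58.6 and 57.7 CPM), Dis3l2 (115 and 120 CPM) and Trim28 (128 CPM in each) had intervals that held 0. Of all genes in this class 90% lay between -0.43 and 0.39, so each of these values was within the common range.

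**Figure D3:**
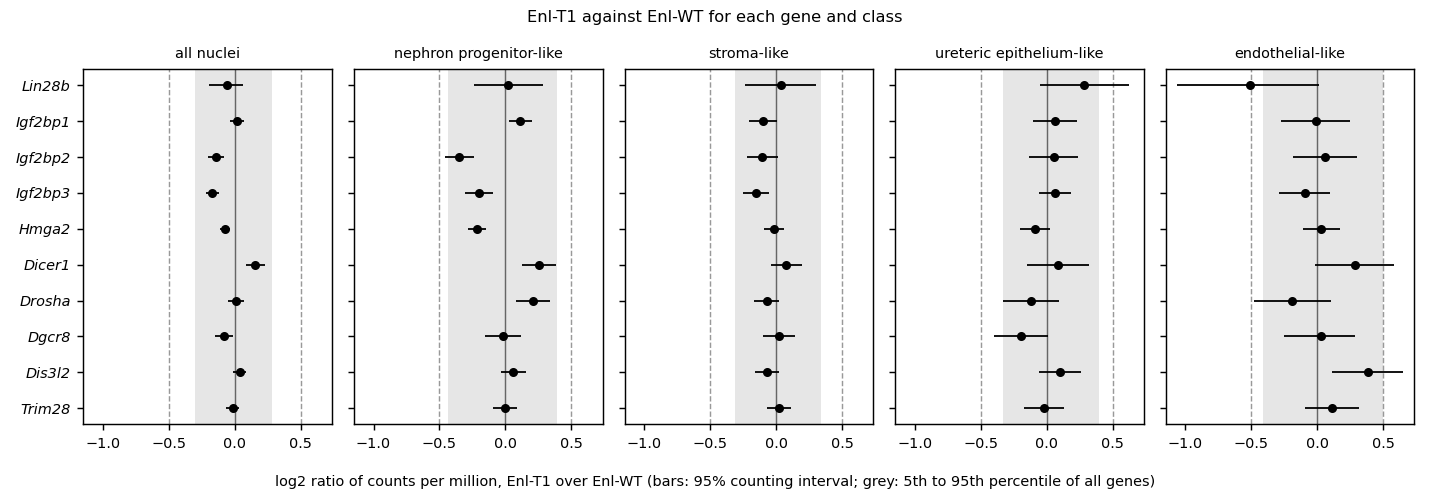
Log2 ratio of CPM, Enl-T1 over Enl-WT (horizontal axis), of each gene in all nuclei and 4 classes. Bars are 95% counting intervals, dashed lines mark 0.5 log2 and the grey band holds the 5th to 95th percentile of all genes. Lin28b in endothelial-like nuclei (-0.51) is the single point past a dashed line.

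Within Enl-T1 the ratio of progenitor cluster 10 to cluster 0 had an interval without 0 at Hmga2, Drosha and Dgcr8. The share of all genes with such an interval was not counted. Hmga2 had 267.5 CPM in Enl-WT cluster 1, 217 CPM in Enl-T1 cluster 0 and 267 CPM in Enl-T1 cluster 10, so the ratio to Enl-WT was -0.30 (-0.38 to -0.23) for cluster 0 and -0.00 (-0.10 to 0.10) for cluster 10. Within Enl-T1, cluster 10 was higher than cluster 0 by 0.30 log2 (0.20 to 0.40). Drosha had 63.0, 76.8 and 62.0 CPM in the same order, and cluster 10 was below cluster 0 with a log2 ratio of -0.31 (-0.51 to -0.11), as it was for Dgcr8 (60.4 and 50.6 CPM, -0.26, -0.48 to -0.04). Igf2bp2 (94.1, 72.0 and 77.4 CPM) was below the Enl-WT cluster in both Enl-T1 clusters, and Dicer1 (60.6, 73.3 and 70.9 CPM) was above it in both. The 11 progenitor markers summed to 754, 595 and 673 CPM in these clusters. The clusters were defined on regions outside the 10 genes.

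In stroma-like nuclei, in which Cre also acts, the genes were closer to each other: their log2 ratios lay between -0.15 and 0.08. These nuclei were also partly split by library. Cluster 8 held 2 Enl-WT and 1061 Enl-T1 nuclei, cluster 14 held 29 and 606, and cluster 9 held 846 and 204. The other stroma-like clusters were more mixed, and the part of this split in the ratios was not tested. Igf2bp3 had 98.1 CPM in Enl-WT and 88.3 CPM in Enl-T1, with a log2 ratio of -0.15 (-0.25 to -0.05), and the intervals of the other 9 genes held 0. In endothelial-like nuclei Dis3l2 had 59.2 and 77.1 CPM, a log2 ratio of 0.38 (0.11 to 0.65). Whether the ratio of a gene differs between classes was not tested.

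Ratios of single regions spread more widely than those of whole genes. Of the 81 shared regions, 78 had 100 or more counts in progenitor-like nuclei, and 12 of them (15.4%) were higher and 12 (15.4%) lower by 0.5 log2 or more, beside 15.8% and 15.9% of 93200 regions across the genome. None of the 12 regions at a start site passed, beside 3.50% higher and 5.14% lower among all start regions, and the 66 others had 12 each way (18.2%), beside 18.5% and 18.2%. In stroma-like nuclei 5 of 72 were higher and 7 lower, beside 12.3% and 8.98%. The shares in progenitor-like nuclei were thus near those of all regions. Counts of each library lie within its own peak boundaries, so a ratio also carries differences in peak width, which are given below for some regions only.

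At Hmga2 the lowest region by ratio also had many counts. The intronic region chr10:120388292-120389258 had 29.6 CPM in Enl-WT and 13.0 CPM in Enl-T1 progenitor-like nuclei, a log2 ratio of -1.18 (-1.42 to -0.94), with peaks of 967 and 932 bp. The value was -1.36 (-1.63 to -1.08) for cluster 0 and -0.85 (-1.23 to -0.48) for cluster 10. In stroma-like nuclei, where it was much less open, it had 4.64 and 5.33 CPM (0.20, -0.24 to 0.63). In endothelial-like nuclei it had 29.1 and 25.2 CPM (-0.21, -0.66 to 0.24). The middle of this region is shown (GRCm38.p6, plus strand, chr10:120388625-120388924, no searched motif).
Hmga2, intronic region: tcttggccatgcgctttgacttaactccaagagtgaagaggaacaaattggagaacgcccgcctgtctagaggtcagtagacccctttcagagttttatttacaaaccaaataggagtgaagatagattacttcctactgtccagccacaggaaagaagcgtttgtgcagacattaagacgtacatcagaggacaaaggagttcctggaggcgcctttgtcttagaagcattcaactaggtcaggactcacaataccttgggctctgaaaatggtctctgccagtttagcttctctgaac

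At chr10:120420649-120421612 in the same gene, singled out after its values were seen, Enl-T1 cluster 0 had 27.6 CPM and cluster 10 had 45.6 CPM, against 52.0 CPM in Enl-WT cluster 1. The ratio to Enl-WT was thus -0.91 (-1.10 to -0.72) in cluster 0 and -0.19 (-0.43 to 0.04) in cluster 10. The highest Hmga2 region by ratio, chr10:120369142-120370007, had 4.71 and 7.45 CPM in progenitor-like nuclei (0.66, 0.22 to 1.13). At the start region of Hmga2, chr10:120476077-120477426, Enl-T1 was higher in stroma-like nuclei (19.6 against 30.001 CPM, 0.61, 0.41 to 0.80) and in endothelial-like nuclei (18.2 against 33.4 CPM, 0.88, 0.43 to 1.33), but its Enl-WT peak was 867 bp wide and its Enl-T1 peaks 1224 bp together.

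Igf2bp2 had several lower regions in Enl-T1 progenitor-like nuclei. Of its 9 shared regions 5, all intronic, were lower by 0.5 log2 or more, 3 of them with intervals below 0, and none was higher, beside 15.9% and 15.8% of all regions, while its start region nearest the first exon, chr16:22162549-22164009, had 37.4 CPM in Enl-WT and 31.3 CPM in Enl-T1 (-0.26, -0.43 to -0.08). The lowest by ratio was chr16:22109740-22110927, with 8.16 and 4.50 CPM (-0.86, -1.29 to -0.43), although its Enl-T1 peak was the wider at 1169 against 972 bp. The highest was chr16:22144996-22146260, with 3.06 and 3.795 CPM (0.31, -0.28 to 0.91). Igf2bp3 had 2 lower and 1 higher of 10 regions with 100 or more counts, from chr6:49151101-49152026 (2.35 and 1.30 CPM, -0.86, -1.69 to -0.03) to chr6:49186325-49187372 (3.49 and 5.20 CPM, 0.58, 0.06 to 1.14). Its start region, chr6:49214556-49215867, had 47.1 and 47.5 CPM (0.01, -0.14 to 0.16).

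Igf2bp1 was higher at its start instead. The region over the first exon, chr11:96005536-96006457, had 21.1 CPM in Enl-WT and 26.8 CPM in Enl-T1 progenitor-like nuclei (0.35, 0.13 to 0.57), and the upstream region chr11:96006852-96007715 had 30.6 and 38.5 CPM (0.33, 0.15 to 0.51), with peaks of 922 and 898 bp and of 853 and 838 bp. In stroma-like nuclei both intervals held 0 (-0.15, -0.36 to 0.08, and -0.04, -0.28 to 0.20). The intronic region chr11:95982223-95983141 was lower in stroma-like nuclei, with 12.1 and 6.05 CPM (-0.998, -1.34 to -0.66), and in progenitor-like nuclei, with 7.93 and 5.80 CPM (-0.45, -0.86 to -0.04). For Lin28b the lowest region was chr10:45482946-45483880, with 2.63 and 1.52 CPM (-0.79, -1.59 to -0.05), and the highest was chr10:45473250-45474053, with 1.49 and 2.01 CPM (0.43, -0.41 to 1.31). Both lie upstream of the coding start of Lin28b at chr10:45470201.

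The shared region of Dicer1 with the highest ratio lay inside the gene. This intronic region, chr12:104735950-104737244, had 6.55 CPM in Enl-WT and 10.8 CPM in Enl-T1 progenitor-like nuclei (0.72, 0.34 to 1.10) and 3.10 and 5.80 CPM in stroma-like nuclei (0.91, 0.42 to 1.39), although the Enl-T1 peak was the narrower, at 1015 against 1285 bp. The ratio was 0.70 in cluster 0 and 0.89 in cluster 10. A nearby intronic peak called in Enl-WT alone, chr12:104738256-104739286, is outside every ratio. It had 10.5 CPM in Enl-WT cluster 1, and progenitor-like nuclei gave 267 of its 660 counts (40.5%, 35.3 to 46.1). Its level in Enl-T1 is unknown, and its part in the gene's difference between the libraries (60.6 and 72.3 CPM) was not tested. The start region, chr12:104751494-104752703, had 40.1 and 43.4 CPM (0.12, -0.05 to 0.28). The intronic window is printed because it held a Six2-type match, in capitals (GRCm38.p6, plus strand, chr12:104736447-104736746).
Dicer1, intronic region: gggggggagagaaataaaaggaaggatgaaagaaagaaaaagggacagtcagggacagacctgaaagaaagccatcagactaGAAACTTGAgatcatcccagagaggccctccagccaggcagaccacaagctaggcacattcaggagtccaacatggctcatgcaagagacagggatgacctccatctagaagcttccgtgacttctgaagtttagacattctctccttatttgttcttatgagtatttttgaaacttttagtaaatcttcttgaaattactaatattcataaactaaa

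Drosha was higher in Enl-T1 progenitor-like nuclei by 0.5 log2 or more at 3 of its 7 shared regions and lower at none, beside 15.8% and 15.9% of all regions. Region chr15:12910791-12911703 was singled out after its values were seen, as the Enl-T1 clusters parted there. It held 122 counts in Enl-WT cluster 1, 212 in Enl-T1 cluster 0 and 21 in Enl-T1 cluster 10. Against Enl-WT it was higher in cluster 0 (0.71, 0.24 to 1.19) and lower in cluster 10 (-1.02, -2.22 to -0.11). The highest, in an intron, had 1.81 CPM in Enl-WT and 3.66 CPM in Enl-T1 (1.02, 0.33 to 1.78), from 4.44 CPM in cluster 0 and 1.69 CPM in cluster 10. In stroma-like nuclei the same region was more open and went the other way, with 11.1 and 8.24 CPM (-0.43, -0.75 to -0.12). Its peaks were 1255 and 866 bp wide. The lowest by ratio was chr15:12874198-12876294 (3.10 and 3.04 CPM, -0.03, -0.66 to 0.57), and the start region chr15:12824159-12825218 had 46.7 and 49.4 CPM (0.08, -0.07 to 0.23). The shared regions of Drosha also touch the window of another coding gene, 6030458C11Rik.

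Dis3l2 had 6 regions higher and 1 lower of the 17 with 100 or more counts in progenitor-like nuclei, beside 15.8% and 15.9% of all regions. The lower one, chr1:86834279-86835516 in an intron, had 8.32 CPM in Enl-WT and 3.20 CPM in Enl-T1 (-1.38, -1.86 to -0.91), with peaks of 1230 and 877 bp, and it was lower in both Enl-T1 clusters (-1.46 and -1.45). The highest, chr1:86994100-86995191, had few counts, 34 and 132, and 1.33 and 3.58 CPM (1.42, 0.64 to 2.29). The start region of Dis3l2, chr1:86703340-86704271, had 25.001 and 24.0 CPM (-0.06, -0.27 to 0.15). Dgcr8 had only its start region, chr16:18288671-18289763, with 58.6 and 57.7 CPM (-0.02, -0.16 to 0.12). The main start region of Trim28, chr7:13023740-13025671, which also touches the window of the neighbouring Zbtb45, had 61.2 and 61.7 CPM (0.01, -0.12 to 0.14). Its other regions were chr7:13022115-13023505 (31.4 and 29.1 CPM, -0.11, -0.30 to 0.08) and chr7:13009441-13010243 (35.6 and 37.2 CPM, 0.06, -0.11 to 0.24). Both lie upstream of the coding start of Trim28 at chr7:13024152, as the annotated gene begins at chr7:12999114. They held 800 and 906 of the 3264 Trim28 counts in Enl-WT progenitor cluster 1, and every Trim28 level above includes them.

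**Figure D4:**
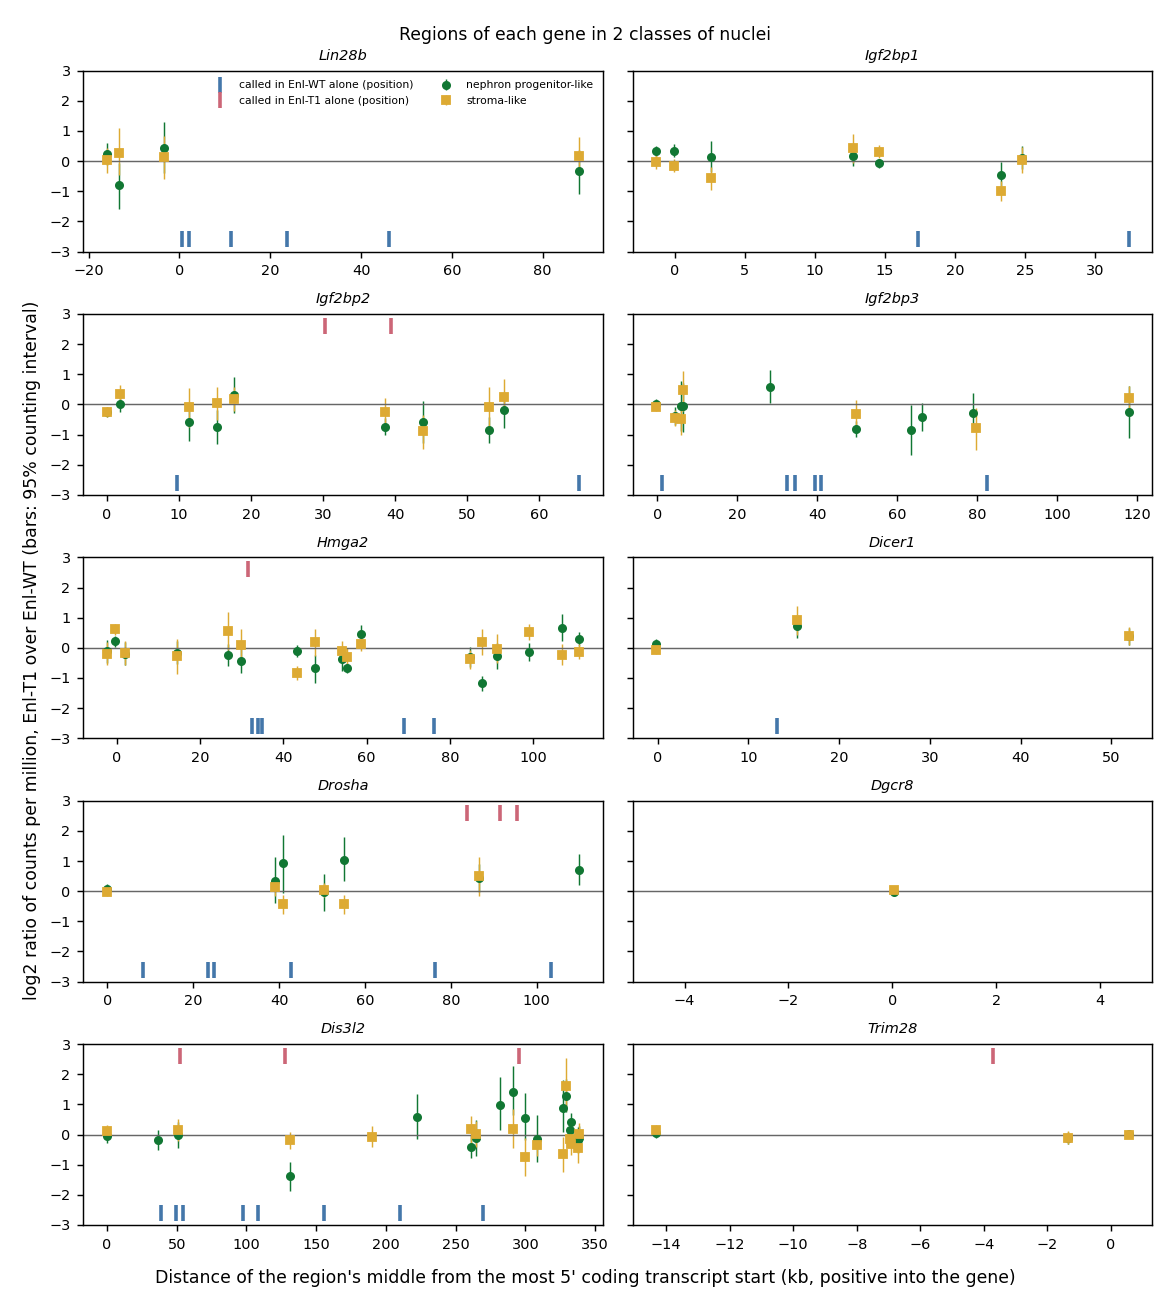
Log2 ratio of CPM, Enl-T1 over Enl-WT (vertical axis), of each region with 100 or more counts against its distance from the start of the protein-coding transcript (horizontal axis, kb) in nephron progenitor-like (green) and stroma-like (yellow) nuclei. Bars are 95% counting intervals, and ticks mark peaks called in Enl-WT alone (blue, bottom) or Enl-T1 alone (red, top). In progenitor-like nuclei the 12 start regions lie between -0.26 and 0.35, in stroma-like nuclei that of Hmga2 is at 0.61, and the Hmga2 region at -1.18 and the Dis3l2 region at -1.38 are the low green points.

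The other genes of these pathways had ratios of like size. In progenitor-like nuclei none of the 14 measured genes of miRNA processing and silencing passed 0.5 log2 (median -0.01, from Ago4 at -0.19 to Srrt at 0.13), nor did any of the 9 regulators of let-7 turnover and developmental timing (median -0.08, from Syncrip at -0.13 to Tut7 at 0.14). Of the let-7 host and neighbour genes only 3 of 13 had 200 or more counts (Huwe1 at -0.07 to Wdr82 at 0.25). None of 12 TRIM28 partners passed (median -0.04, from Pphln1 at -0.21 to Cbx3 at 0.24), nor did any of 14 exosome and decay genes (median 0.05, from Exosc9 at -0.15 to Xrn1 at 0.47). Among 28 other Wilms tumour genes (median 0.03) H19, the imprinted partner of Igf2, was the 1 past the fold, with 21.5 CPM in Enl-WT and 31.4 CPM in Enl-T1 (0.54, 0.33 to 0.76), and Six2, the nephron progenitor factor, was the lowest, with 70.5 and 56.6 CPM (-0.32, -0.45 to -0.19). In endothelial-like nuclei 1 of 27 of these was higher and 1 lower. No gene of the lists passed in stroma-like or ureteric epithelium-like nuclei.

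As a description of shared patterns, the log2(CPM + 1) of each gene was correlated with all other genes over 17 combinations of class and library with 50 or more nuclei, which share libraries and, for small classes, few counts. Hmga2 was most like Has3, Zcchc18 and Gli3 (r = 0.94, 0.94 and 0.93) and Igf2bp1 most like Gldc, Esrrg and Alk (0.97, 0.96 and 0.95). Among the 10 genes the closest pair was Hmga2 and Igf2bp1 (r = 0.83). Lin28b was most like Srd5a3, Snx13 and Wdr13 (0.94, 0.94 and 0.93), Igf2bp2 most like Nkx1-2, Synj2bp and Iqub (0.95, 0.95 and 0.94), and Igf2bp3 most like Trib1, Akr1c13 and Irak4 (0.89, 0.88 and 0.87). For Dicer1 they were Kif28, Spag8 and Wwox (0.88, 0.87 and 0.86), for Drosha Rbpms2, Pde11a and Scube2 (0.85, 0.84 and 0.84), and for Dgcr8 Gm9958, Trp53rka and Cxcr5 (0.95, 0.94 and 0.92). Dis3l2 paired with Cps1, Zfp853 and Mag (0.89, 0.86 and 0.85) and Trim28 with Luc7l3, Trmt10c and Kctd20 (0.94, 0.93 and 0.93).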

How the data were processed

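Nuclei of E15.5 kidneys were profiled on the 10x Chromium ATAC platform, and per the labels reads were processed with Cell Ranger ATAC 2.1.0 against mm10. The deposited matrices hold counts of transposase cuts per peak and barcode, not normalized, with peaks called by the authors' pipeline in each library separately. Most values were even, as both ends of a fragment were counted, so intervals used counts divided by 2. The other quality filters of the study were not applied. Barcodes with 2000 to 100000 counts were kept. Peaks overlapping by at least 1 bp formed 176056 regions, 110706 of them in both libraries, and counts were scaled to CPM over the latter. Total counts of kept nuclei were 138015168 (Enl-WT) and 109444579 (Enl-T1), 88.8% and 94.9% in shared regions.

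Nuclei of both libraries were clustered together, without integration, on TF-IDF and LSI components 2 to 30 with Leiden (leidenalg 0.10.2, resolution 1) in Python 3.11.15, which gave 27 clusters, 21 of them named. Class names came from marker lists, and the scoring rule, including a minimum of 20 CPM for a leading gene, was set after the clusters were seen. Doublets were removed only in an alternative. Log2 ratios have exact conditional binomial 95% intervals and levels exact Poisson ones, and calculations were tested on simulated data. With 1 library a group no test was made, and 0.5 log2 served as the fold rule, over protein-coding genes with at least 50 counts. Named were all 10 genes, the 3 genes most like each among genes with at least 500 counts that share no region with it, the extreme genes of each list with at least 200 counts, and for each gene its start regions and its highest and lowest region with at least 100 counts in progenitor-like nuclei. The members and lists were chosen with earlier results of these data known. TMM factors (edgeR 4.0.16) and 11 other alternatives were tried. Sequences are RefSeq's (GRCm38.p6). The sequence and position of 1 region are not reported here.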

Additional observations from a re-analysis of the deposited data

Results flagged for a closer look

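Of 26 named regions with 100 or more counts in at least 2 of the 4 classes, 2 (7.69%) had counting intervals on opposite sides of 0 in 2 classes, as did 4 of 74 regions of the 10 genes (5.41%) and 3.92% of 92334 shared regions in all, and the difference between the classes was not tested. The Drosha region with the highest ratio in nephron progenitor-like nuclei, in an intron, had a log2 ratio (Enl-T1 over Enl-WT) of 1.02 (0.33 to 1.78) in those nuclei, from 46 and 135 counts, and -0.43 (-0.75 to -0.12) in stroma-like nuclei. The start region of Dis3l2, chr1:86703340-86704271, had a ratio of 0.60 (0.13 to 1.06) in endothelial-like nuclei and -0.39 (-0.73 to -0.06) in ureteric epithelium-like nuclei.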

How the results depend on the processing

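With 1 library a group, a replicate could not be left out. No paired analysis was possible because each group holds a single library and no test was made. None of the 10 genes passed 0.5 log2 in progenitor-like nuclei under the 12 alternatives (11 for Lin28b, which has no shared start region). The stricter naming rule and the higher count minimum for background genes could not change these genes' ratios in progenitor-like or endothelial-like nuclei. They repeat the main values in every count of alternatives for these classes. Scaling to all peaks gave a median of 0.0568 over all nuclei and 0.157 in ureteric epithelium-like nuclei, as it raised the median of all genes to 0.0676 and 0.0861 (and in endothelial-like nuclei to 0.133). Start regions alone gave 1 gene past the fold over all nuclei, 1 in stroma-like and 2 in endothelial-like nuclei, among the 9 genes that had a shared start region, and 3 of those 9 kept their highest class. Hmga2 passed in each of these groups of nuclei, and its start region covered more bases in Enl-T1 than in Enl-WT. In ureteric epithelium-like nuclei 1 gene, Lin28b, passed with regions of 80% reciprocal overlap and with nuclei thinned to 2000 counts. In endothelial-like nuclei the count was 0 with a minimum of 5000 counts, with counts set to 0 or 1, with doublets removed and with thinning, and Lin28b passed in 6 of its 11 alternatives, with a negative ratio in all 11. With 80% overlap, 53 peaks of each library counted as shared, down from 83 and 85. In progenitor-like nuclei Hmga2 ran from -0.36 to 0.22 and Igf2bp3 from -0.45 to 0.01 over the alternatives, the highest value of each being that of the start regions alone. Igf2bp2 (-0.50 to -0.18), Igf2bp1 (0.07 to 0.34), Dicer1 (0.04 to 0.34) and Drosha (0.08 to 0.29) kept their sign in all 12. Depth limits Lin28b most, with 409 and 600 counts in progenitor-like nuclei. Genotype, library and pooled embryos cannot be told apart.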
